A study of Mus with 6 samples.

Results

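Microglial identity genes were compared between the hippocampus of control mice and of mice exposed to forced swim stress (FSS mice). The list holds 33 genes that mark or define microglia. A gene counted as measured when a row of the table carried its symbol and no other. Of the 33 genes, 32 were measured, each by a single row, among 21789 rows with 1 gene symbol and 28944 rows in all. Lyn, a Src-family kinase, was not measured on such a row and is not described. Each of the 6 arrays held RNA from the whole hippocampus of 1 mouse, 3 control and 3 FSS. All were male C57BL/6JJmsSlc mice of 10 to 11 weeks, with no genetic change. FSS mice swam for 11 min daily on 5 consecutive days in water at 25 °C that was 25 cm deep, and control mice did not swim. By the study's schedule the mice also went through a tail suspension test before the tissue was taken. Its methods say that 3 mice were drawn at random for the volcano plot from a larger number run on arrays. The 6 arrays thus need not be all that were run. The RNA was of whole tissue, so that a change in the number of microglia and a change in RNA per microglial cell cannot be told apart, in either direction.

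Microglia are the resident macrophages of the brain parenchyma. They arise from the yolk sac, depend on signalling through the receptor Csf1r for survival, and are kept in their surveying state by fractalkine from neurons and by transforming growth factor beta. Their identity rests on transcription factors such as PU.1 (encoded by Spi1), Irf8 and Sall1, and much of their sensing runs through receptors that signal with the adaptors Tyrobp and Fcer1g. Stress models are often examined for changes in these cells.

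In FSS mice, 10 of the 32 microglial genes were higher than in control mice at an unadjusted p under 0.05 in limma, 1 was lower and 21 did not pass. Over all rows tested, 2.49% were higher and 2.66% were lower at the same threshold. The higher genes were Gpr34, Trem2, Siglech, Laptm5, Tyrobp, Olfml3, Cx3cr1, Ly86, Fcer1g and Itgam, and the lower gene was Mertk. The differences were small, with fold changes of 1.12 to 1.23 among the higher genes. None of the 32 genes passed the study's thresholds, a log2 fold change over 0.5 in size with an unadjusted p under 0.05, which 0.0688% of all rows did. At an unadjusted p under 0.01, Gpr34 alone was higher and no gene was lower, against 0.454% and 0.464% of all rows. After Benjamini-Hochberg adjustment over all rows, limma passed 0 genes at 0.05, and the adjusted p was 0.943 for each of the 11 genes. Levels are log2 values from robust multi-array averaging (RMA), and each difference is FSS minus control on that scale, with its standard error (SE).

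The median log2 fold change of the 32 genes was 0.077, against 0.0049 over all rows. Of the 32, 27 lay above 0, as did 53% of all rows. For 9 genes every FSS mouse was above every control mouse, a pattern found in 6.02% of all rows. For Mertk every FSS mouse was below every control mouse, which held for 4.25% of all rows. In a fit limited to rows whose mean level exceeded the median, 9 of 21 microglial genes were higher, as were 4.81% of those rows. In that fit 1.78% of rows were lower, so brighter rows leaned upward in FSS mice. The median log2 fold change was 0.0165 over those rows and 0.11 for the 21 genes. With 3 mice a group, the smallest p that an exact permutation test allows is 0.1, so no such test was run on single genes. The main test of single genes was the fit across all rows, and a fit with each gene's own variance was an alternative.

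**Figure D1:**
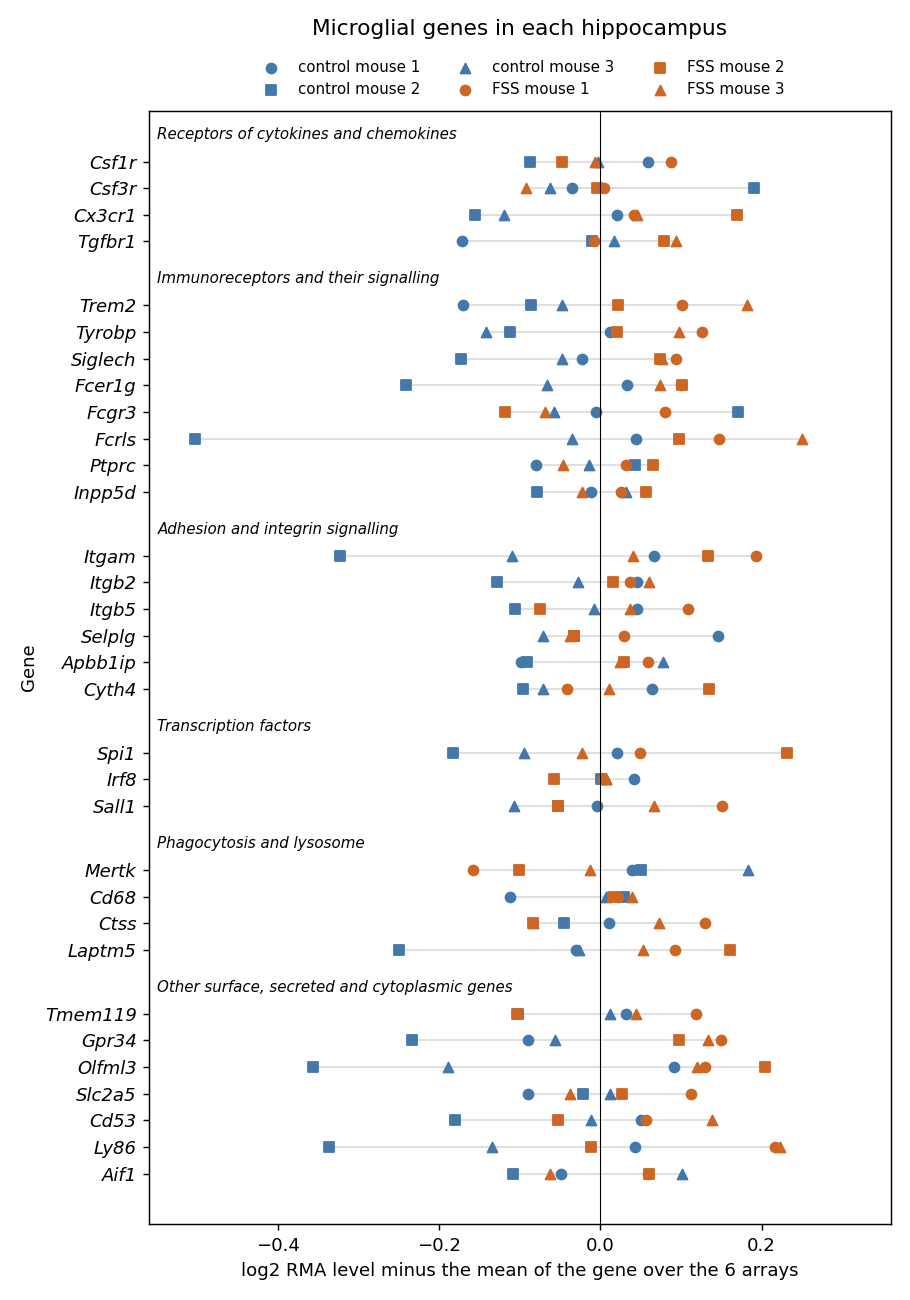
Level of each of the 32 measured microglial genes (y axis, grouped by role) in each mouse, as the log2 RMA level minus the mean of that gene over the 6 arrays (x axis). Colours give the group and shapes the mouse, and control mouse 2 (blue squares) is the lowest of the 6 for 17 genes.

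The mice of a group did not lie evenly apart. Averaged over the 32 genes, the deviation from each gene's own mean was -0.0035, -0.11 and -0.036 in control mice 1, 2 and 3. In FSS mice 1, 2 and 3 it was 0.073, 0.033 and 0.046. Control mouse 2 was thus the lowest animal, and control mouse 1 lay closer to the FSS mice than to control mouse 2. Control mouse 2 had the lowest level of the 6 for 17 of the 32 genes, whereas it was the lowest in 18.8% of all rows. It was also the lowest for 8 of the 10 higher genes, and control mice 1 and 3 for 1 each. These genes were picked as higher in FSS mice, so a low control mouse favours their selection and the count is no separate evidence. All genes were measured in the same 6 mice, so the 10 are not independent observations. FSS mouse 1 had the highest level for 10 genes, FSS mouse 2 for 8 and FSS mouse 3 for 7. Over all rows these mice were the highest in 21.3%, 15.2% and 16.2%. In 23 of the 32 genes the SD was larger among control than among FSS mice, which held for 50.4% of all rows.

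Among the receptors for cytokines and chemokines, 1 of 4 was higher and none was lower. Cx3cr1, the receptor for fractalkine, had levels of 9.36, 9.18 and 9.22 in control mice and 9.38, 9.51 and 9.38 in FSS mice. The groups did not overlap, but only 0.021 separated control mouse 1 from the nearest FSS mouse. The log2 fold change was 0.17 (SE 0.065). Csf1r, through which microglia receive the survival signals of CSF1 and IL-34, had levels of 9.65, 9.50 and 9.59 in control mice and 9.68, 9.54 and 9.58 in FSS mice. These groups lay on top of each other, and the 95% interval of the difference ran from -0.12 to 0.16. The other members were Tgfbr1, a type I receptor of transforming growth factor beta (log2 fold change 0.11, 95% interval -0.041 to 0.26), and Csf3r, the receptor of granulocyte colony-stimulating factor (-0.062, 95% interval -0.24 to 0.12). Both had overlapping groups.

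Of the immunoreceptors and their signalling proteins, 4 of 8 were higher and none was lower. Trem2, a lipid-binding receptor of microglia, had levels of 8.29, 8.37 and 8.41 in control mice and 8.56, 8.48 and 8.64 in FSS mice. Its log2 fold change was 0.20 (SE 0.059), with a gap of 0.070 between the groups. Tyrobp, the membrane adaptor that carries the signal of Trem2, had levels of 8.98, 8.86 and 8.83 in control mice and 9.10, 8.99 and 9.07 in FSS mice. Its groups were separated by 0.0087, the distance from control mouse 1 to FSS mouse 2. The log2 fold change of Tyrobp was 0.16 (SE 0.058). Siglech, a lectin of the Siglec family that also pairs with Tyrobp, had levels of 8.31, 8.16 and 8.28 in control mice and 8.42, 8.40 and 8.41 in FSS mice. The FSS mice were almost equal, and the log2 fold change was 0.16 (SE 0.052).

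Fcer1g, the adaptor chain shared by several Fc receptors, had levels of 8.956, 8.681 and 8.856 in control mice and 9.022, 9.024 and 8.996 in FSS mice. Here too the FSS mice lay close together while the control mice spread. The log2 fold change was 0.18 (SE 0.073). Fcgr3, a low-affinity receptor for immunoglobulin G that needs such an adaptor chain, had a log2 fold change of -0.071 (95% interval -0.26 to 0.12). Fcrls, an Fc receptor-like protein, had levels of 8.077, 7.528 and 7.997 in control mice and 8.179, 8.130 and 8.283 in FSS mice. Its log2 fold change of 0.33 was the largest of the 32 genes, yet its 95% interval reached from -0.0040 to 0.66 and it did not pass. Control mouse 2 lay far below the other control mice in this gene, and without it the log2 fold change was 0.16. Fcrls passed an unadjusted p under 0.05 in limma when any of the control mice was left out, in 3 of 6 omissions. It did not pass when any of the FSS mice was left out. It also passed with an intensity trend, with array weights and with both filters on dim rows. The phosphatase genes Ptprc, which encodes CD45, and Inpp5d, which encodes the lipid phosphatase SHIP1, had log2 fold changes of 0.034 (95% interval -0.092 to 0.16) and 0.039 (95% interval -0.076 to 0.15).

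**Figure D2:**
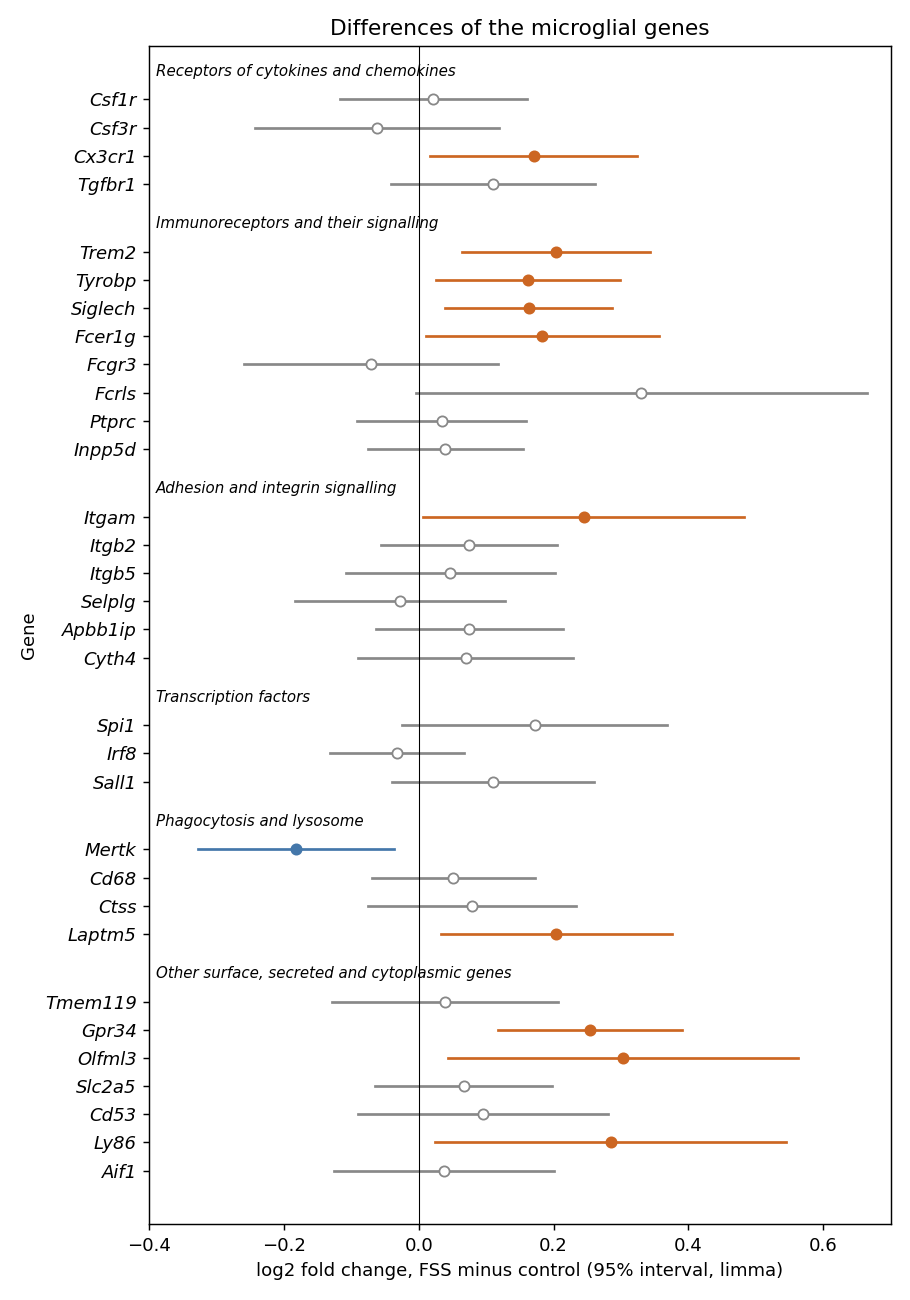
Log2 fold change of each microglial gene (x axis, FSS minus control, with limma's 95% interval as a line) by role (y axis). Filled points passed an unadjusted p under 0.05, with 10 genes to the right of 0 and Mertk to the left.

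Of the genes of adhesion and integrin signalling, 1 of 6 was higher and none was lower. Itgam encodes the alpha chain of complement receptor 3 (CD11b), a common label of microglia. Its levels were 7.48, 7.09 and 7.31 in control mice and 7.61, 7.55 and 7.46 in FSS mice. Control mouse 1 was above FSS mouse 3, so that the groups overlapped, and the log2 fold change was 0.24 (SE 0.10). Itgb2, the beta chain that pairs with Itgam, had a log2 fold change of 0.075 (95% interval -0.056 to 0.20). For Itgb5, a beta chain that pairs with the alpha V integrin, the value was 0.046 (95% interval -0.11 to 0.20). Apbb1ip, which links the small GTPase Rap1 to integrin activation, had 0.075, Cyth4, an exchange factor for ARF GTPases, had 0.069, and Selplg, the ligand of P-selectin, had -0.028.

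None of the 3 transcription factor genes passed. Spi1, which encodes PU.1, had levels of 7.16, 6.95 and 7.04 in control mice and 7.19, 7.37 and 7.11 in FSS mice. Control mouse 1 lay between FSS mouse 3 and FSS mouse 1, and the log2 fold change was 0.17 (95% interval -0.025 to 0.37). Sall1, a zinc-finger gene that among brain cells is largely restricted to microglia, had levels of 8.31, 8.26 and 8.20 in control mice and 8.46, 8.26 and 8.38 in FSS mice. FSS mouse 2 fell within the control range, and the log2 fold change was 0.11 (95% interval -0.041 to 0.26). Irf8, the partner of PU.1 at many sites, had levels of 7.58, 7.54 and 7.55 in control mice and 7.54, 7.48 and 7.55 in FSS mice. The log2 fold change of Irf8 was -0.032 (95% interval -0.13 to 0.067), an upper bound lower than that of any other microglial gene that did not pass.

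Genes of phagocytosis and the lysosome went both ways, with 1 of 4 higher and 1 lower. Laptm5, a lysosomal membrane protein of blood-lineage cells, had levels of 9.35, 9.13 and 9.35 in control mice and 9.47, 9.54 and 9.43 in FSS mice. The groups were 0.079 apart, and the log2 fold change was 0.20 (SE 0.072). Mertk encodes a receptor tyrosine kinase for the uptake of dying cells and is made by astrocytes as well as microglia. Its levels were 10.00, 10.01 and 10.14 in control mice and 9.80, 9.86 and 9.95 in FSS mice. Every FSS mouse was thus below every control mouse, with a log2 fold change of -0.18 (SE 0.061). In the same mice the astrocytic genes Gjb6 (log2 fold change -0.32), Fgfr3 (-0.15) and Aldoc (-0.10) were also lower, and Aqp4, Gfap and Gja1 were higher. What part astrocytes had in the value of Mertk was not tested. Cd68, a lysosomal glycoprotein used to mark phagocytic cells, had a log2 fold change of 0.051 (95% interval -0.070 to 0.17), and Ctss, the protease cathepsin S, one of 0.079 (95% interval -0.076 to 0.23).

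The remaining surface, secreted and cytoplasmic genes all had differences above 0, and 3 of 7 passed. Gpr34, a receptor for lysophosphatidylserine, had levels of 5.80, 5.66 and 5.84 in control mice and 6.04, 5.99 and 6.02 in FSS mice. The gap of 0.15 between its groups was the widest of the 32 genes, and the log2 fold change was 0.25 (SE 0.057). Its mean level lay at percentile 21.6 of all rows, the lowest of the microglial genes, and its signal over background was not measured. Olfml3, a secreted olfactomedin-like protein, had levels of 9.83, 9.38 and 9.55 in control mice and 9.87, 9.94 and 9.86 in FSS mice. The groups were 0.028 apart, control mouse 2 lay furthest down, and the log2 fold change was 0.30 (SE 0.11).

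Ly86, which encodes MD-1, the partner of a Toll-like receptor homologue, had levels of 10.50, 10.12 and 10.32 in control mice and 10.67, 10.44 and 10.68 in FSS mice. FSS mouse 2 was below control mouse 1, and the log2 fold change was 0.29 (SE 0.11). Tmem119, a membrane protein widely used to tell microglia from other macrophages, had levels of 8.912, 8.777 and 8.891 in control mice and 8.999, 8.776 and 8.924 in FSS mice. The groups spanned the same range, with a log2 fold change of 0.039 (95% interval -0.13 to 0.21). Aif1, which encodes the stain antigen Iba1, had levels of 6.04, 5.98 and 6.19 in control mice and 6.15, 6.15 and 6.02 in FSS mice. Its log2 fold change was 0.037 (95% interval -0.13 to 0.20). The tetraspanin Cd53 had a log2 fold change of 0.095 and the fructose transporter Slc2a5 one of 0.067, and neither passed.

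Among genes long used to label microglia, some passed and some did not. Cx3cr1, Itgam and Trem2 passed, while Tmem119, Aif1 and Csf1r had intervals that included 0 and stayed below 0.25. Whether these genes differed from each other in their response was not tested. Of the 21 genes that did not pass, 17 lay above 0, and the upper bound of the 95% interval was under 0.25 for 16 of the 21. A difference as large as that of Gpr34 lay outside those 16 intervals.

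**Figure D3:**
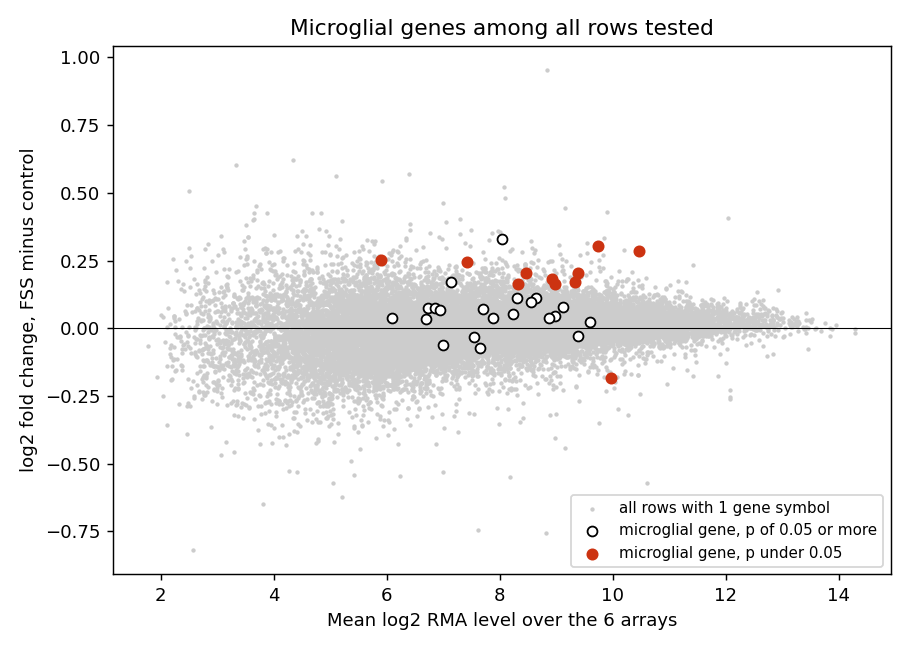
Log2 fold change (y axis, FSS minus control) against the mean log2 RMA level (x axis) of all 21789 rows (grey) and of the 32 microglial genes (circles, red where the unadjusted p was under 0.05). The microglial genes span mean levels from 5.89 to 10.5 and none reaches a log2 fold change of 0.5.

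The count of 10 depended on single mice. It was 4 without control mouse 2, 6 without control mouse 3 and 4 without FSS mouse 1, and 12 without control mouse 1. Over all rows the share higher was 2.01%, 2.38%, 1.71% and 2.9% in these fits. Mertk did not pass without control mouse 3, FSS mouse 1 or FSS mouse 2. Gpr34, Trem2 and Siglech passed in all 6 omissions. Tyrobp, Itgam and Ly86 passed in 2, Cx3cr1, Laptm5 and Mertk in 3, and Fcer1g and Olfml3 in 1. The log2 fold change kept its sign in every omission for all 11 genes and was 0.20 to 0.29 for Gpr34, 0.16 to 0.24 for Trem2 and 0.12 to 0.19 for Siglech. For the 32 genes together the median ran from 0.070 (FSS mouse 1 left out) to 0.11 (control mouse 1 left out). When each gene was tested on its own variance without moderation, 4 genes were higher, and over all rows 2.96% were.

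**Figure D4:**
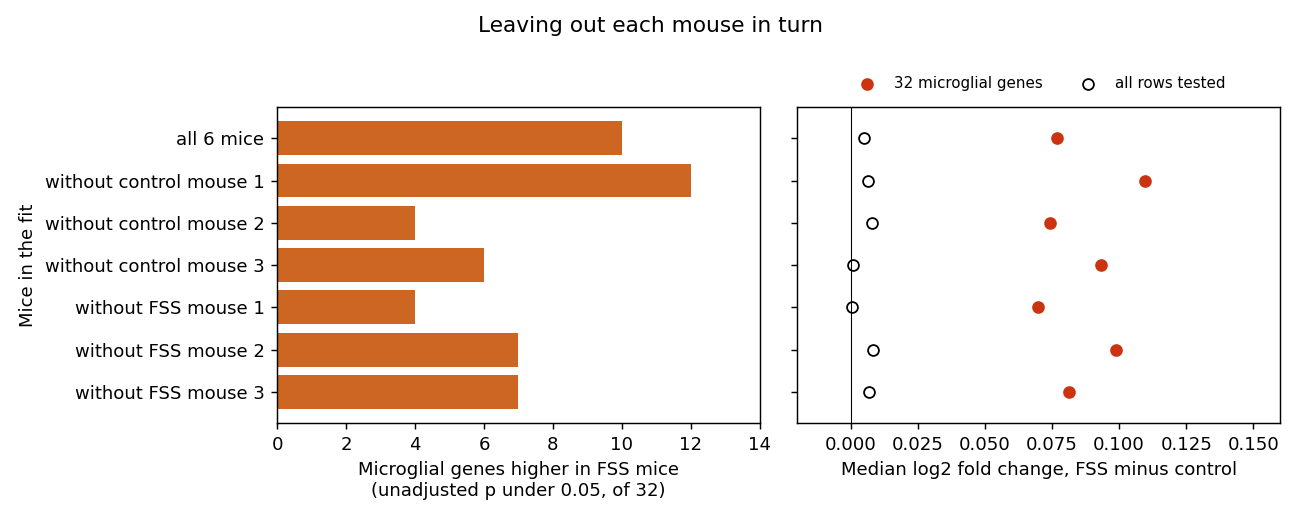
Number of microglial genes higher in FSS mice (left, x axis) and median log2 fold change of the 32 genes and of all rows (right, x axis), with all 6 mice and without each mouse (y axis). The count ran from 4 to 12, and the median of the microglial genes stayed to the right of that of all rows in each fit.

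A further 30 genes known from microglia were examined beside the list, and 27 were measured. Of these, 6 were higher, none was lower and 21 did not pass, with a median log2 fold change of 0.035. The purinergic receptor P2ry13 had levels of 9.61, 9.27 and 9.30 in control mice and 9.79, 9.67 and 9.67 in FSS mice (log2 fold change 0.32, SE 0.096). Cd84, a receptor of the SLAM family, had levels of 6.28, 6.13 and 6.18 in control mice and 6.46, 6.42 and 6.45 in FSS mice (log2 fold change 0.25, SE 0.052). Both had groups that did not overlap. The others were Blnk, an adaptor below immune receptors (log2 fold change 0.22), the endolysosomal exonuclease Pld4 (0.22), the prostaglandin synthase Hpgds (0.21) and the sialic acid receptor Cd33 (0.14). Of the 27 genes, 21 lay above 0, and for 8 every FSS mouse was above every control mouse. The shares over all rows were 53% and 6.02%. The number of higher genes in this list was 2 with each gene's own variance, 3 without control mouse 2 or FSS mouse 1 and 10 without control mouse 1. Without FSS mouse 2, 1 gene of this list was lower, as were 4.18% of all rows.

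Ligands and partners of the receptors on the list did not pass. Of 15 measured, 0 were higher and 0 lower at an unadjusted p under 0.05 in limma, and 14 had differences above 0, with a median log2 fold change of 0.038. In other settings, 0 to 1 were higher, with 1 under each gene's own variance, an intensity trend and both filters on dim rows. The count was also 1 when control mouse 1, control mouse 2 or FSS mouse 2 was left out. Tgfb1, a ligand for Tgfbr1, had levels of 7.43, 7.53 and 7.46 in control mice and 7.59, 7.60 and 7.55 in FSS mice (log2 fold change 0.10, SE 0.045). Il34, a neuronal ligand of Csf1r, had levels of 8.87, 8.87 and 8.85 in control mice and 8.92, 8.94 and 8.88 in FSS mice (log2 fold change 0.051, SE 0.040). For both, every FSS mouse was above every control mouse, but neither passed. Of 18 genes that act below the receptors, 1 was higher, the adaptor Lcp2 (log2 fold change 0.14, SE 0.047), and none was lower. Of 11 other transcription factors of microglia, Ikzf1 (log2 fold change 0.18) and Fli1 (0.13) were higher and none was lower. Without control mouse 1, 1 factor was lower, as were 2.65% of all rows. Neither Ikzf1 nor Fli1 passed without control mouse 2, FSS mouse 1 or FSS mouse 3, and Lcp2 lost its call without FSS mouse 1 and without either of control mice 2 and 3.

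Other cell types that hippocampal tissue can hold were examined with marker lists. The neuronal markers, including those of hippocampal cells, had mean levels from percentile 76.2 of all rows upward, and 1 of 12 was higher (Prox1, a marker of dentate granule cells, log2 fold change 0.15). Of the 12 neuronal genes, 11 lay above 0, and for 4 every FSS mouse was above every control mouse. Over all rows these shares were 53% and 6.02%. A lean above 0 and groups without overlap were thus not particular to the microglial list. Of 12 astrocytic genes, 3 were higher and 3 were lower, and with single mice left out 1 to 3 were higher and 0 to 2 lower. Of these 12, 8 lay above 0. Every FSS mouse was above every control mouse for 5 astrocytic genes and below for 3. With each gene's own variance, 3 of the 12 neuronal genes were higher. Of 11 endothelial genes and 11 genes of the oligodendrocyte lineage, none passed in either direction in limma with all mice and without a trend, a block or a filter. Of the endothelial genes 7 lay above 0, and 1 had every FSS mouse above every control mouse. For the oligodendrocyte lineage these counts were 6 and 0. Across the other settings 0 to 3 endothelial genes were higher, with 3 in the fit limited to rows above the median level. For the oligodendrocyte lineage 0 to 5 genes were higher, with 5 without FSS mouse 2, where 3.42% of all rows were higher. The mean level of the endothelial list was 8.02 in control mouse 2, below its range of 8.10 to 8.22 in the other mice. The list of the oligodendrocyte lineage had a mean level of 10.1 in FSS mouse 2 and of 10.3 to 10.4 in the other mice. The part of these differences between mice in the values of the microglial genes was not tested.

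Macrophages of the brain borders share many genes with microglia. Of 12 genes that mark them, 1 was higher, the transglutaminase subunit F13a1, with levels of 5.94, 5.84 and 5.88 in control mice and 6.07, 6.24 and 6.12 in FSS mice (log2 fold change 0.26, SE 0.057). The mean level of this list was 6.01 to 6.13 in control mice and 6.08 to 6.18 in FSS mice, so that the groups overlapped. With each gene's own variance, 3 of its genes were higher. Of the 12 genes, 7 lay above 0, and for 3 every FSS mouse was above every control mouse. The shares over all rows were 53% and 6.02%. Of 13 genes of blood leukocytes, Camp was higher (log2 fold change 0.20), S100a9 was lower (-0.13) and the median log2 fold change was -0.074. Without FSS mouse 2, 4 leukocyte genes were lower, as were 4.18% of all rows. Without control mouse 2, 1 border macrophage gene was lower, as were 1.79% of all rows. Only 2 of 9 erythroid genes were measured, and neither passed. The mean level of the leukocyte list was 5.16 to 5.35 in control mice and 5.12 to 5.30 in FSS mice, and none of its members reached the median level of all rows. These lists were thus mostly dim on the arrays, and the part of either cell type in the microglial values was not tested.

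**Figure D5:**
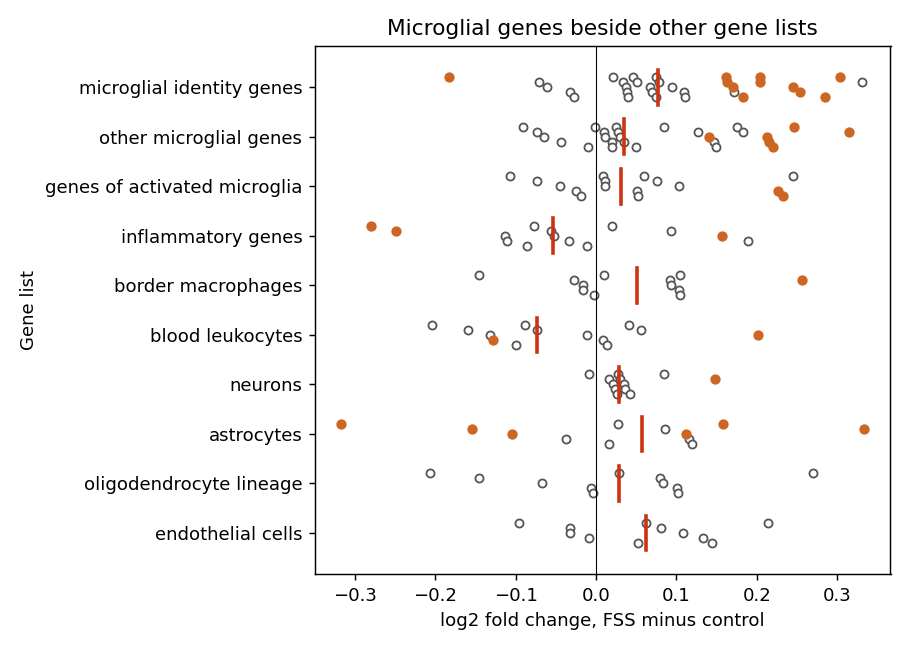
Log2 fold change (x axis, FSS minus control) of each measured gene of the microglial list and of lists for other states and cell types (y axis). Circles are genes, orange where the unadjusted p was under 0.05, and red bars are medians, which were 0.077 for the microglial genes, 0.035 for the other microglial genes and -0.074 for blood leukocytes.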

How the data were processed

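The authors hybridised the RNA to Mouse Gene ST arrays (Affymetrix), 1 mouse per array, normalized the CEL files by RMA and exported them from the Affymetrix Expression Console. The deposited values are log2 levels. RMA brings the arrays to a common distribution, so a shift of all genes together would be removed. Over all rows, the array medians differed by at most 0.032. Precision is limited by the number of arrays. Levels of different rows were not compared as amounts.

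Symbols came from the platform annotation, and 21698 of the 21789 rows with 1 symbol matched RefSeq by gene ID. Of the rows with several symbols, 3 list Itgam beside Rpl35 and were left out. FSS minus control was fitted to those rows by the limma functions lmFit and eBayes (version 3.58.1, R 4.3.3) without covariates, after a test on simulated data. The study's methods give Mann-Whitney and Student's tests as general tools, without saying which gave the volcano plot, and the fit with each gene's own variance, an alternative, corresponds to Student's test. No set test was run. On the microglial list, values in each mouse are given for genes that passed, genes whose groups did not overlap and the main identity genes. For the lists beside it, they are given for some genes only. The genes and lists were chosen with earlier results of these data known. Sequences were not used here. Alternatives were other variance models, array weights, other normalizations, filters on dim rows, stricter thresholds, the mean of a gene's rows, a replicate block and omissions of each array.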

Additional observations from a re-analysis of the deposited data

How the results depend on the processing

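The count of 10 higher microglial genes was 4 with each gene's own variance, 1 at an unadjusted p under 0.01 and 0 at an adjusted p under 0.05 in limma. The count of 1 lower gene was 0 at either stricter threshold. Leaving out each mouse gave 4 to 12 higher genes and 0 to 1 lower, against 1.71% to 3.42% and 1.79% to 4.23% of all rows. It gave 10 to 14 genes higher without overlap, where 5 mice overlap less by construction (8.96% to 15.5% of all rows). With the other alternatives (intensity trend, array weights, quantile normalization, median centring, both filters on dim rows, the mean of rows and the block), 7 to 11 genes were higher and 1 was lower, against 1.82% to 4.81% and 1.78% to 3.63% of all rows. The filters left 21 and 30 of the 32 genes. In each alternative the median log2 fold change moved by less than 0.046, the spread between mice, and no gene passed the study's thresholds. Among single genes, the sign changed only in omissions of a mouse, in genes that had not passed. The log2 fold change then ranged from -0.0078 to 0.098 for Aif1, from -0.017 to 0.056 for Csf1r, from -0.11 to 0.018 for Csf3r, from -0.070 to 0.038 for Selplg and from -0.010 to 0.10 for Tmem119.

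Control and FSS mice share replicate numbers. The deviations of equally numbered mice from their group means correlated over all rows with r = -0.048, 0.14 and 0.24. For unequally numbered mice r ran from -0.26 to 0.13. With so few mice these values cannot settle whether equal numbers mark pairs. The main fit did not take the numbers as pairs. With the replicate block, 9 genes were higher and 1 was lower, as were 3.23% and 3.63% of all rows. Cx3cr1 and Laptm5 did not pass with the block, whereas Fcrls did.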

Other observations

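Of 16 measured genes of activated microglia, 2 were higher and 14 did not pass, with a median log2 fold change of 0.031. The number higher was 0 with each gene's own variance and without FSS mouse 1 or FSS mouse 3 and 3 without FSS mouse 2. In this list 1 gene was lower with array weights, with median centring and with the filter at the lower quartile of levels. The tetraspanin Cd9 had levels of 8.34, 8.38 and 8.27 in control mice and 8.69, 8.39 and 8.61 in FSS mice (log2 fold change 0.23, SE 0.081), with FSS mouse 2 just above the control range. Cd63, a tetraspanin of late endosomes, had levels of 8.39, 8.18 and 8.44 in control mice and 8.62, 8.43 and 8.64 in FSS mice (log2 fold change 0.23, SE 0.089). Neither gene is restricted to microglia. The receptor kinase Axl (log2 fold change 0.076, SE 0.045) and Lgals3, which encodes galectin-3 (-0.11, SE 0.048), had groups that did not overlap, but neither passed.

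Of 14 measured inflammatory genes, 10 lay below 0, 2 were lower and 1 was higher. Il1b, which encodes interleukin-1 beta, had levels of 6.40, 6.39 and 6.22 in control mice and 6.03, 6.09 and 6.04 in FSS mice (log2 fold change -0.28, SE 0.060, limma adjusted p = 0.943). Tnf, the gene of tumor necrosis factor, had levels of 6.22, 6.10 and 5.88 in control mice and 5.77, 5.83 and 5.85 in FSS mice (log2 fold change -0.25, SE 0.088, limma adjusted p = 0.943). Cybb, a subunit of the phagocyte NADPH oxidase, had levels of 5.75, 5.79 and 5.70 in control mice and 6.02, 5.79 and 5.91 in FSS mice (log2 fold change 0.16, SE 0.065). These 3 genes lay at percentiles 20.7 to 26.5 of all rows by mean level, and their signal over background was not measured. With each gene's own variance, 1 inflammatory gene was lower and none was higher. When each mouse was left out, 1 to 3 inflammatory genes were lower, and none was higher except without FSS mouse 2.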
